A study of Mus musculus with 6 samples.

Results

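Polycomb repressive complex 1 (PRC1) is represented here by 10 genes chosen by symbol: the catalytic subunits Ring1 and Rnf2, the 6 PCGF genes (Pcgf1, Pcgf2, Pcgf3, Bmi1, Pcgf5 and Pcgf6), Cbx7 and Bcor. They are 10 of the 23412 rows of the expression table, and all 10 were among the 14276 genes tested, which averaged 5 or more normalized counts per library. RNA-seq was done on undifferentiated mouse embryonic stem cells (mESCs) of strain 129Sv from a wild type line, R1, and an Htt-/- line, HN, each with 3 libraries, which makes 6 in all. The promoter and exon 1 of Htt, which encodes huntingtin, are deleted in HN mESCs. Each genotype is thus 1 cell line, and differences between these lines cannot be told apart from differences caused by the genotype. Both lines were grown without feeder cells on gelatin, in medium with serum, leukemia inhibitory factor and the kinase inhibitors SU5402, PD184352 and CHIR99021. R1 and HN replicates of the same number were collected on the same date, and the 3 dates are called dates 1, 2 and 3.

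PRC1 is a chromatin complex that adds ubiquitin to a lysine of histone H2A, a mark written H2AK119ub1, through a RING1 protein joined to a PCGF protein. The PCGF protein decides which other subunits can join: canonical PRC1 takes up a CBX protein that reads the histone mark laid down by PRC2, and variant PRC1 takes up RYBP or YAF2 instead. In mESCs these complexes sit at the promoters of silent developmental regulators and, in the case of the PCGF6 form, at germline genes.

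Depth and the state of the cells were checked first. The libraries held 1640391 to 3866717 reads on genes. Htt fell from 229 ± 29.0 normalized counts in R1 to 43.5 ± 22.0 in HN (SD, n = 3 each, log2 fold change -2.52 ± 0.37 SE, limma adjusted p = 0.0141), and reads on exons outside the deletion are counted too. The 10 markers of mESCs were found in every library, and their summed normalized count was 12455 to 18369 in R1 and 13182 to 17735 in HN. Of these 10 genes, 4 passed as higher in HN (Nanog, Klf4, Esrrb and Dppa5a) and 2 as lower (Zfp42 and Utf1) in limma with a term for the collection date, and 0 without it. Among all tested genes 5.46% passed as higher and 4.02% as lower with that term, and 0.119% and 0.126% without it. Summed counts of the marker lists of other cells were far lower: 36.2 to 152 in R1 and 34.0 to 135 in HN for 6 primitive endoderm markers, 6.39 to 60.7 and 17.0 to 54.2 for 4 trophectoderm markers, and 37.0 to 94.3 and 11.3 to 61.7 for 5 fibroblast markers. The ranges of the lines overlapped for each of these lists. The 4 neural markers summed to 246 to 303 in R1 and 137 to 210 in HN, which do not overlap, and the 4 mesoderm markers to 75.5 to 161 and 142 to 260. Elf5 (trophectoderm) and Dcn (fibroblast) were each listed at 0 in 1 library. The part of the mESC, neural and mesoderm markers in the results below was not tested.

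The change in HN was largest for Bcor among the 10 genes. Bcor was 2.57 times as high in HN as in R1 (ratio of means), Pcgf3 was 1.47 times as high, and Cbx7 stood at 0.667 of its R1 level. In the comparison of the lines without a term for the date (limma, adjusted p under 0.05), 0 of 10 genes passed as higher, where 0.119% of all tested genes did, and 0 of 10 passed as lower, where 0.126% did. At an unadjusted p under 0.05, 1 of the 10 genes was higher and 0 were lower, where 3.15% and 2.75% of all tested genes were. edgeR on the recovered reads passed 0 of 10 in either direction, and DESeq2 passed 1 gene, Bcor, as higher. With a term for the date that same-numbered libraries share, limma passed 2 of 10 as higher, Bcor and Pcgf3, where 5.46% of all tested genes passed, and 1 of 10 as lower, Cbx7, where 4.02% did. The median log2 fold change of the 10 genes was -0.05, and that of all tested genes was -0.01. In bulk RNA, fewer cells that express a gene and less RNA per cell cannot be told apart. The labels name separate collection dates but no separate origin of the cultures. The p-values therefore measure the spread between these 6 libraries, which limma pools in part over genes. With the date term the spread is that within dates. Most of it is then taken from the trend over all tested genes, and little from the gene itself.

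**Figure D1:**
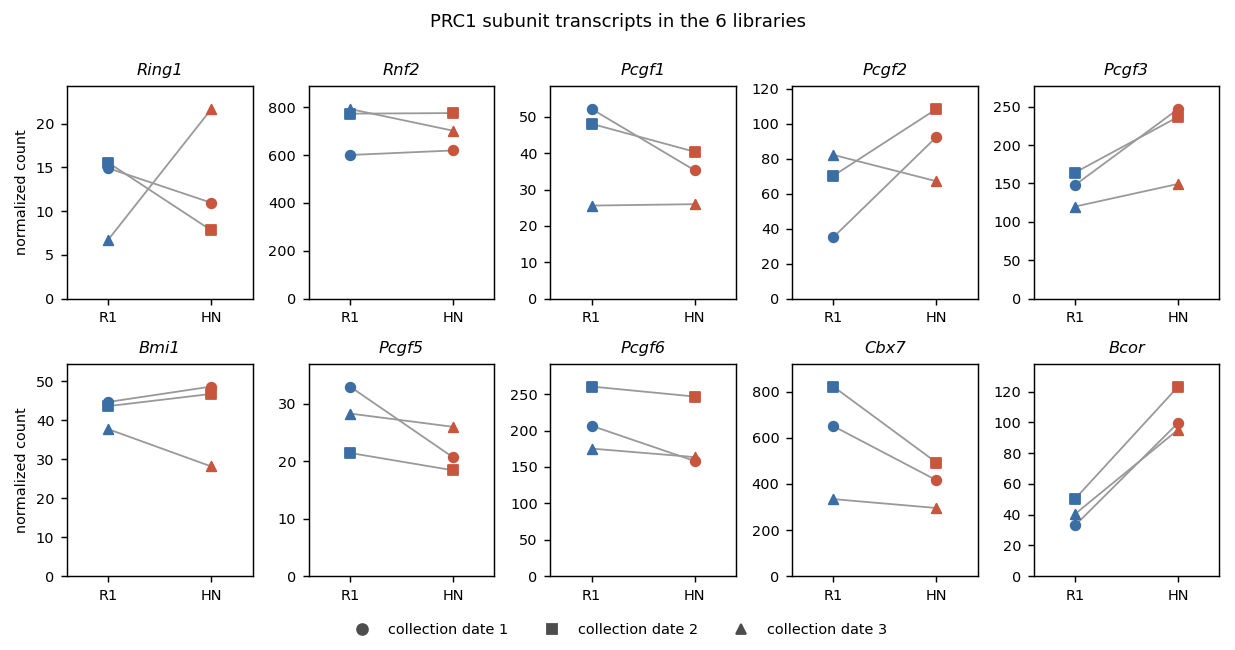
Normalized count (vertical axis, from 0, on a scale of its own for each gene) of the 10 PRC1 genes in the 3 R1 libraries (blue) and the 3 HN libraries (red), with a grey line joining the libraries of one collection date. Bcor rises along all 3 lines to 95.3 or more in HN from 50.3 or less in R1, Pcgf3 is higher and Cbx7 lower in HN on each date by different amounts, and the Rnf2 libraries of both lines lie between 600.4 and 793.

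The sequence next to the transcription start is shown for the 3 genes that passed with the date term. Each line gives 250 bases before a RefSeq start site in GRCm38.p6, read 5′ to 3′ on the strand of the gene, with CpG dinucleotides in capitals. The Bcor bases lie at chrX:12160356-12160605 on the minus strand, ending at the 5′ end of the GENCODE M21 gene, the Pcgf3 bases at chr5:108461009-108461258 on the plus strand, and the Cbx7 bases at chr15:79932647-79932896 on the minus strand, inside the annotated gene, which has longer transcripts.
Bcor: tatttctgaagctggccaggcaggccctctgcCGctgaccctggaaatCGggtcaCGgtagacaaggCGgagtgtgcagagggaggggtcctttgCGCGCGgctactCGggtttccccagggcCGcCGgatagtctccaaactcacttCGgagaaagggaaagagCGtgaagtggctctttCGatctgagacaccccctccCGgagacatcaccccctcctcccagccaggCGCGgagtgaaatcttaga
Pcgf3: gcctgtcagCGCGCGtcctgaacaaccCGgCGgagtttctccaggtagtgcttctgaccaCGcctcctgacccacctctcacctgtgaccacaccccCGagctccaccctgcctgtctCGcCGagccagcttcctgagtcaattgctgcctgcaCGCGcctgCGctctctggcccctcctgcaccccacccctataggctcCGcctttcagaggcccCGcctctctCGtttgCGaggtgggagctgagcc
Cbx7: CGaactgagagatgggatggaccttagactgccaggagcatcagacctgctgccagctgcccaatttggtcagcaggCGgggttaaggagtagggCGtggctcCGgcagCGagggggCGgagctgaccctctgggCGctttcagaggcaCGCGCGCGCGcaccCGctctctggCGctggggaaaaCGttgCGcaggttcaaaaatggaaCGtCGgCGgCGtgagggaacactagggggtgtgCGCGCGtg
These windows held 16, 16 and 23 CpG dinucleotides, against a median of 6 over the 32851 promoter windows of the same length. The RefSeq promoter table used here was matched by symbol for 9 of the 10 genes. CpG counts over the windows of these 9 ranged from 4, at the second of 3 Pcgf5 starts, to 30 at Ring1. The E-box CACGTG, which reads the same on both strands, stood in the Bmi1 and Pcgf2 windows and in 6.02% of all windows. GCGGGAA, a core of E2F sites searched on both strands, stood at the third Pcgf5 start and in 3.82% of all windows. Pcgf1 was the gene not matched.

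The 2 catalytic genes did not move beyond the spread of the libraries. Rnf2, which encodes the ubiquitin ligase RING1B, had normalized counts of 600.4, 773 and 793 in R1 on dates 1, 2 and 3 and of 619, 775 and 702 in HN. The lines overlapped fully, and the libraries of date 1 were the lowest in both. Its log2 fold change was -0.04 ± 0.19 SE, with a 95% interval from -0.46 to 0.37 without the date term and from -0.23 to 0.15 with it. Ring1, which encodes the paralog RING1A, was counted at 14.9, 15.5 and 6.74 in R1 and at 10.95, 7.80 and 21.7 in HN. Its values rest on 5 to 21 reads per library, and date 3 was the lowest R1 library and the highest HN library. The small log2 fold change of 0.08 ± 0.54 SE had an interval from -1.11 to 1.26, and from -0.78 to 0.93 with the date term. Rnf2 made up 97.8% ± 1.03 of the summed Ring1 and Rnf2 level per kilobase of exon in R1 and 97.6% ± 1.27 in HN (SD, n = 3 each, two-sided exact permutation p = 0.9).

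Bcor encodes a subunit that joins PCGF1 in the variant complex PRC1.1 and is also known as a corepressor of BCL6. Its normalized counts were 33.0, 50.3 and 40.4 in R1 and 99.8, 123 and 95.3 in HN. Every HN library was above every R1 library, and the lowest HN value stood well clear of the highest R1 value. The means were 41.2 ± 8.68 in R1 and 106 ± 15.1 in HN (SD, n = 3 each). The log2 fold change was 1.35 ± 0.25 SE with limma (95% interval 0.81 to 1.90, adjusted p = 0.0612), and with the date term its SE was 0.18 (interval 0.99 to 1.71, adjusted p = 1.01e-06). With DESeq2 on the recovered reads the adjusted p was 0.00429 without the date term and 0.000114 with it, and with edgeR it was 0.0504 and 8.19e-09. Within dates 1, 2 and 3 the log2 difference of HN from R1 was 1.57, 1.28 and 1.22. Leaving out each date in turn with the term kept gave 1.25 to 1.42. Bcor was the 1 of 10 genes whose HN libraries all stood above all R1 libraries, as 5.23% of all tested genes did. In 0 of the 10 did they all stand below, as 5.54% of all tested genes did. No 50-base stretch of the Bcor transcripts occurs in transcripts of another gene.

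Pcgf1 encodes the PCGF protein that BCOR binds. Its normalized counts were 52.2, 48.1 and 25.6 in R1 and 35.3, 40.4 and 26.0 in HN. The lines overlapped, and date 3 was lowest in both. Its log2 fold change was -0.26 ± 0.34 SE, and the interval with the date term ran from -0.72 to 0.21. The other PRC1.1 genes read as follows. Kdm2b, whose protein brings the complex to unmethylated CpG islands, stood at 146, 235 and 117 in R1 and at 277, 466 and 181 in HN. It was higher in HN on all 3 dates, although the lines overlapped. Its log2 fold change was 0.84 ± 0.34 SE (limma adjusted p = 0.752, and 4.79e-06 with the date term). Of the 50-base stretches of Kdm2b transcripts, 12.5% also occur in another gene, most of all in Rnf34, which overlaps it on the opposite strand. Bcorl1, the paralog of Bcor, was counted at 8.52, 13.3 and 14.8 in R1 and at 19.5, 24.8 and 24.9 in HN. These values do not overlap, and the log2 fold change was 0.89 (adjusted p = 0.0815 with the date term). Bcorl1 was named after its values were seen. The remaining 2 genes of this complex, Skp1a and Usp7, had log2 fold changes of 0.14 and 0.05 and did not pass.

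Pcgf3 and Pcgf5 encode the PCGF proteins of the variant complexes PRC1.3 and PRC1.5, which share their partners. Pcgf3 was at 148, 164 and 120 normalized counts in R1 and at 247, 237 and 149 in HN. The HN library of date 3 stood below the R1 library of date 2, so the lines overlapped, but HN was higher within each date. The means were 144 ± 22.4 and 211 ± 53.6 (SD, n = 3 each). HN exceeded R1 by a log2 fold change of 0.53 ± 0.24 SE (limma adjusted p = 0.847), and with the date term the SE was 0.13 (interval 0.27 to 0.78, adjusted p = 0.00538). DESeq2 with the date term gave an adjusted p of 0.0820. Without date 1 or without date 2 the limma call with the date term was lost (adjusted p = 0.0659 and 0.110), and it held without date 3 (0.000307). Pcgf5 went the other way at a far lower level, with 33.0, 21.5 and 28.3 in R1 and 20.7, 18.4 and 26.0 in HN. It was lower in HN on each date within overlapping ranges, and its log2 fold change of -0.33 ± 0.33 SE did not pass with the date term (adjusted p = 0.554). Dcaf7 and Csnk2b, which encode a WD40 scaffold and the regulatory subunit of casein kinase 2 found in the same complexes, passed as higher with the date term at log2 fold changes of 0.47 and 0.36 (adjusted p = 0.00234 and 0.0153). In DESeq2 with the date term Dcaf7 passed (0.0189) and Csnk2b did not (0.0825). Without date 2 neither passed in limma with the term, and without date 3 Csnk2b did not. Auts2, Fbrs, Fbrsl1, Csnk2a1 and Csnk2a2, the other 5 genes listed for them, did not.

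**Figure D2:**
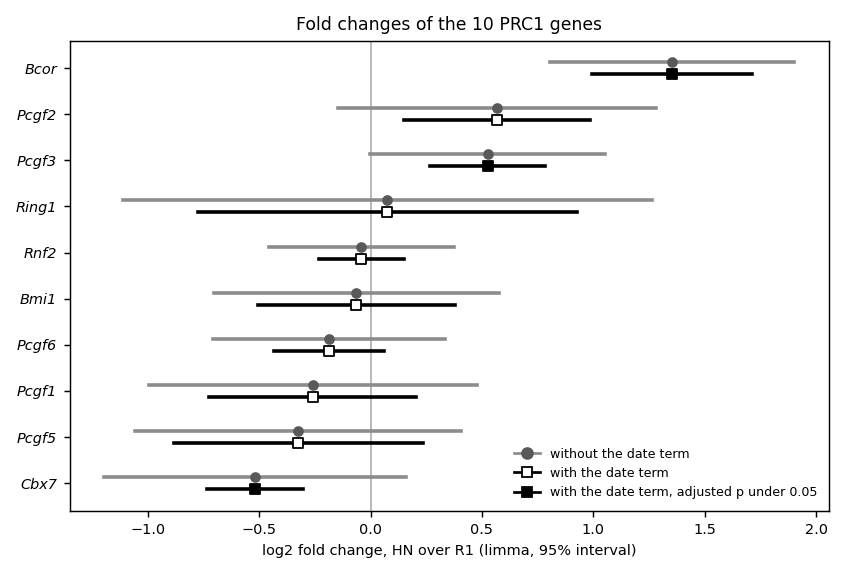
Log2 fold change of HN over R1 (horizontal axis) for the 10 PRC1 genes, with 95% limma intervals without the date term (grey circles) and with it (black squares, filled where the adjusted p over all tested genes is under 0.05). Bcor, Pcgf3 and Cbx7 are the filled ones, and the date term narrows their intervals without moving the points.

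Pcgf2 and Bmi1 encode MEL18 and BMI1, the PCGF proteins of canonical PRC1. Pcgf2 was at 35.1, 70.3 and 82.2 normalized counts in R1 and at 92.5, 108 and 67.1 in HN. HN was higher on dates 1 and 2 and lower on date 3, where R1 was at its highest. The log2 fold change was 0.57 ± 0.33 SE (limma unadjusted p = 0.109), and with the date term the interval was 0.15 to 0.98 (adjusted p = 0.0763). edgeR with the date term passed Pcgf2 (adjusted p = 0.0369) and DESeq2 with it did not (0.427). Without date 1 the log2 fold change dropped to 0.17, and without date 3 it was 0.995 (limma adjusted p = 4.67e-05 with the date term). Only the pairs of dates 1 and 2 remained in that fit, with log2 differences of 1.37 and 0.62. Its p thus rests mostly on the spread that limma pools over genes. Bmi1 was at 44.7, 43.6 and 37.7 in R1 and at 48.7, 46.8 and 28.2 in HN. The lines overlapped, and date 3 was lowest in both. Its log2 fold change was -0.06 ± 0.29 SE, with an interval from -0.51 to 0.38 with the date term. Of the 50-base stretches of Bmi1 transcripts, 16.7% also occur in another gene, most of all in Gm5946, and for Pcgf1 15.3% do, most of all in Gm8930, so reads on these genes could be split or lost in counting.

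Cbx7 encodes the chromodomain protein that ties canonical PRC1 to the mark of PRC2 and is the main CBX protein of mESCs. Its normalized counts were 650.4, 822 and 334 in R1 and 416, 493 and 296 in HN. HN was lower on each date, but both libraries of date 3 were low, and the R1 library of that date stood below 2 of the 3 HN libraries. The means were 602 ± 247 in R1 and 401 ± 99.3 in HN (SD, n = 3 each). The log2 fold change was -0.52 ± 0.31 SE with limma (interval -1.20 to 0.16, unadjusted p = 0.120), and with the date term the SE was 0.11 (interval -0.74 to -0.30, adjusted p = 0.000992). Within dates 1, 2 and 3 the log2 difference was -0.64, -0.74 and -0.18. Without date 2 the call with the date term was lost (log2 fold change -0.41, adjusted p = 0.156). DESeq2 with the date term passed it (adjusted p = 0.00338). Cbx7 shares 100 exon bases with Apobec3 on the opposite strand. The library kit does not mark strand, and Apobec3 itself had a log2 fold change of -0.05 (adjusted p = 0.857 with the date term).

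Pcgf6 encodes the PCGF protein of PRC1.6, which joins MGA, E2F6 and L3MBTL2. Its normalized counts were 207, 260.4 and 175 in R1 and 158, 247 and 164 in HN. HN was lower on each date by less than the spread between dates. Its log2 fold change was -0.19 ± 0.24 SE, and with the date term the interval was -0.43 to 0.06 (adjusted p = 0.408). Pcgf5, Pcgf6 and Cbx7 were thus lower in HN on all 3 dates, which is 3 of 10 genes against 21.1% of all tested genes. Bcor and Pcgf3 were higher on all 3 dates, which is 2 of 10 against 20.3%. Of the 9 partner genes listed for PRC1.6, limma with the date term passed 1. This was Mga, a large DNA-binding scaffold (log2 fold change 0.34, adjusted p = 0.00920). The call was lost without date 2 (limma adjusted p = 0.141) and held without date 1 and without date 3 (0.0396 and 0.00450). L3mbtl2, Max, E2f6, Tfdp1, Hdac1, Hdac2, Wdr5 and Cbx3 did not pass in limma with the date term and all dates kept. edgeR with the date term passed Tfdp1 as lower (log2 fold change -0.35, adjusted p = 0.0321), and DESeq2 with it did not (0.688).

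**Figure D3:**
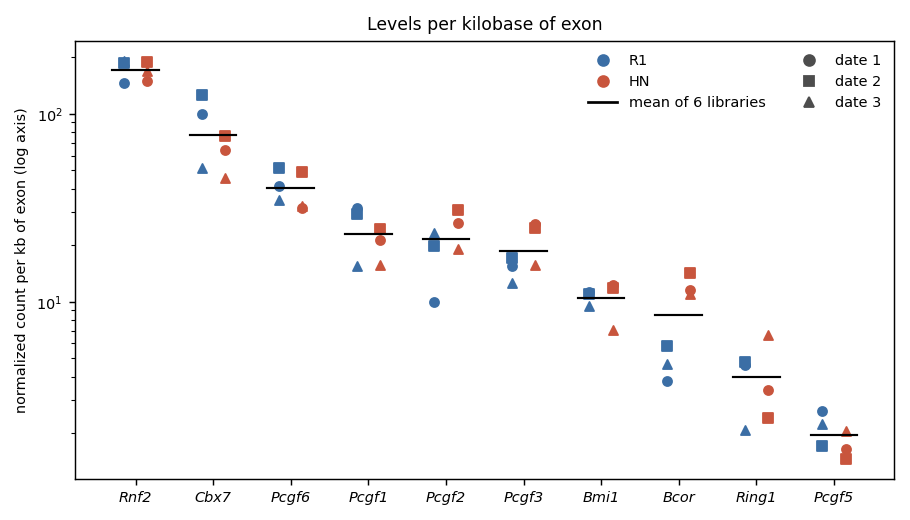
Normalized count per kilobase of exon (log axis) of the 10 PRC1 genes in R1 (blue) and HN (red), ordered by the mean of the 6 libraries (black bars), with marker shapes for the 3 dates. The means run from 172 for Rnf2 down to 1.95 for Pcgf5, and Bcor is the gene whose lines stand apart.

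Levels between genes were compared per kilobase of annotated exon. Rnf2 led at 172 normalized counts per kilobase (mean of 6 libraries), and Cbx7 followed at 77.4. The range of Rnf2, 145 to 192, stood clear of that of Cbx7, 45.6 to 127. Pcgf6 had the highest level of the PCGF genes at 40.1, followed by Pcgf1 at 23.0, Pcgf2 at 21.5 and Pcgf3 at 18.6. Neighbours among these 4 overlapped, although Pcgf6 exceeded Pcgf1 in 6 of 6 libraries. Pcgf1 exceeded Pcgf2 in 2 of 6, and the order of the line means differed, with Pcgf1 at 25.4 and Pcgf2 at 17.7 in R1 and Pcgf1 at 20.6, Pcgf2 at 25.3 and Pcgf3 at 22.1 in HN. A second step without overlap, by a narrow margin, lay between Pcgf3, whose lowest library was at 12.6, and Bmi1 at 10.5, whose highest was at 12.2. Bcor at 8.50, Ring1 at 3.99 and Pcgf5 at 1.95 closed the order, each overlapping with the next. The order was the same with the length of the longest transcript in place of all exons. Between the lines, Bcor moved from 4.76 ± 1.002 in R1, below Bmi1, to 12.2 ± 1.74 in HN (SD, n = 3 each).

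The 6 PCGF genes summed to 114 ± 16.4 normalized counts per kilobase in R1 and 118 ± 25.1 in HN, a difference smaller than the spread of the libraries. Pcgf3 took 13.8%, 13.2% and 12.8% of this sum in R1 and 21.8%, 17.4% and 17.0% in HN. Pcgf6 took 36.7%, 39.6% and 35.6% in R1 and 26.5%, 34.5% and 35.3% in HN. For both genes the lines stood apart, upward for Pcgf3 and downward for Pcgf6, the latter by a narrow margin between the date 3 libraries. The mean share of Pcgf3 was 13.3% ± 0.52 in R1 and 18.7% ± 2.64 in HN, and that of Pcgf6 was 37.3% ± 2.09 and 32.1% ± 4.88 (SD, n = 3 each). Both had a two-sided exact permutation p of 0.1, the smallest that 3 libraries against 3 can give, or 0.4 after Benjamini-Hochberg adjustment over the 8 shares computed. Pcgf2 took 8.89% of the sum in the R1 library of date 1 and 15.2% to 23.8% in the other 5 libraries. Shares of Pcgf1, Pcgf2, Bmi1 and Pcgf5 overlapped between the lines.

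**Figure D4:**
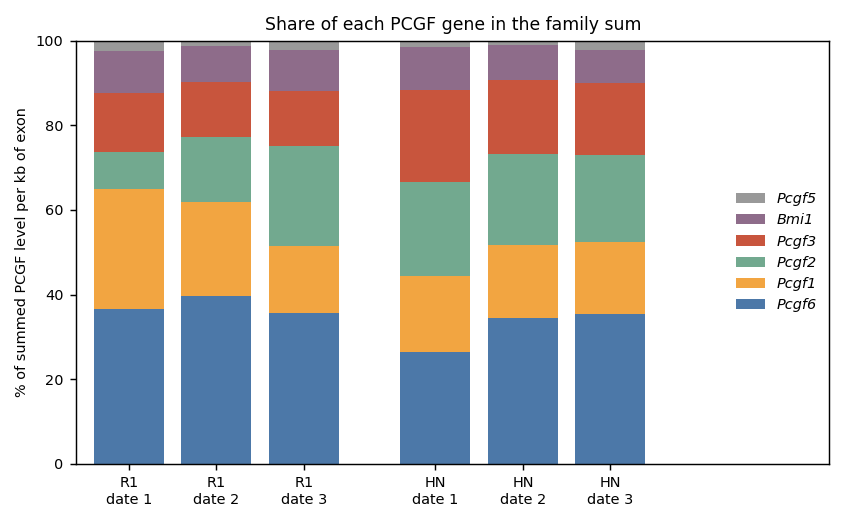
Share of each PCGF gene (stacked, in percent of the summed normalized count per kilobase of exon of the 6 genes) in each R1 and HN library. The Pcgf3 band is 12.8% to 13.8% in R1 and 17.0% to 21.8% in HN, the Pcgf6 band is the widest in all 6 libraries, and Pcgf5 stays under 2.4%.

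The remaining subunits and partners of PRC1 form a list of 31 genes, all of them tested. Without the date term 0 passed in either direction with limma, edgeR or DESeq2, and at an unadjusted p under 0.05 with limma 3 were higher and 0 were lower, where 3.15% and 2.75% of all tested genes were. With the date term limma passed 6 as higher and 0 as lower, where 5.46% and 4.02% of all tested genes passed. Besides Kdm2b, Dcaf7, Mga and Csnk2b these were Phc3 and Scml2, which encode polyhomeotic and Scm proteins of canonical PRC1 (log2 fold changes 0.52 and 0.73, limma adjusted p = 0.0196 and 0.0447). The call of Phc3 was lost without date 1 and without date 2 (limma adjusted p = 0.0933 and 0.220). That of Scml2 was lost whichever date was left out (0.0501, 0.310 and 0.138). DESeq2 with the date term passed neither gene (adjusted p = 0.230 and 0.331). DESeq2 with the date term passed 3 of the 31 as higher. The median log2 fold change of the list was 0.10, with 21 of 31 above 0, as were 6922 of all 14276 tested genes. Without date 2 the count with the date term was 1, without date 1 it was 5 and without date 3 it was 4, and Kdm2b passed in each of these fits.

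The 10 genes listed for the removal and reading of H2AK119ub1 include the deubiquitinase gene Bap1 and the PRC2 cofactors Jarid2 and Aebp2, whose proteins bind the mark. Without the date term 0 of 10 passed with limma, edgeR or DESeq2, and 0 had an unadjusted p under 0.05. With it 1 passed as higher and 0 as lower, where 5.46% and 4.02% of all tested genes did. That gene was Aebp2, with a log2 fold change of 0.39 ± 0.23 SE and a limma adjusted p of 0.0480 with the date term, a call that was lost without date 1 and without date 2. The median log2 fold change was 0.15.

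Genes that PRC1 is known to hold silent in mESCs were read beside its subunits. Of 37 developmental regulators, 1 passed as higher and 0 as lower without the date term, where 0.119% and 0.126% of all tested genes did. With it 4 passed as higher and 0 as lower, where 5.46% and 4.02% did. Olig1 and Olig2, which specify oligodendrocytes and motor neurons, had log2 fold changes of 2.78 ± 0.43 SE and 2.80 ± 0.60 SE (limma adjusted p = 0.0201 and 0.136, and 2.06e-08 and 1.35e-06 with the date term). The study chose both genes on these samples, so they are not independent evidence of a direction. Olig1 stood at 7.45, 5.18 and 20.2 normalized counts in R1 and at 75.4, 71.6 and 63.9 in HN. Its lines stood apart, with R1 highest on date 3. Eomes and T, regulators of mesoderm, had log2 fold changes of 0.96 and 1.21 with overlapping lines and passed in limma with the date term and not without it (adjusted p = 8.57e-05 for Eomes, and an interval from 0.70 to 1.72 for T). DESeq2 passed Olig1 and Olig2 without the date term (adjusted p = 2.42e-05 and 0.00967), and Olig1 and Eomes with it (1.26e-07 and 0.00725), where Olig2 and T missed the threshold (0.0506 and 0.0698). Eomes and T are also among the 4 mesoderm markers. The median log2 fold change of the 37 genes was 0.17, with 24 above 0 and 13 below. Of all 14276 tested genes, 6922 were above 0 and 7354 below. In 28 of the 37 the date 3 library was the highest of its line in both R1 and HN, as it was in 25.6% of all tested genes. These genes are low. All 37 summed to 273, 361 and 904 normalized counts in R1 on dates 1, 2 and 3, and to 672, 621 and 810 in HN. The R1 library of date 3 had the fewest reads (1640391) and the most genes with a read (20675). Of the 10 PRC1 genes 0 were highest on date 3 in both lines, and 4 (Pcgf1, Bmi1, Pcgf3 and Cbx7) were lowest on that date in both, as 29.5% of all tested genes were. The part of the date in these levels was not tested apart from the date term.

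Of 15 germline genes listed as targets of PRC1.6, 14 were tested. Without the date term 0 passed with limma, edgeR or DESeq2, and 3 were lower at an unadjusted limma p under 0.05, where 2.75% of all tested genes were. With it 4 passed as lower and 0 as higher, where 4.02% and 5.46% of all tested genes did. Sycp3, a component of the synaptonemal complex, was at 73.5, 24.4 and 33.7 in R1 and at 14.6, 7.09 and 20.6 in HN, with a log2 fold change of -1.53 ± 0.48 SE (adjusted p = 0.000595 with the date term). The HN libraries were all below the R1 libraries. Of its exon bases, 52.2% are shared with Chpt1 on the opposite strand, and reads on these bases cannot be assigned to either gene without strand. Smc1b and Stag3, subunits of meiotic cohesin, had log2 fold changes of -1.48 and -0.45, and Zcwpw1, a reader of histone methylation in meiosis, of -0.80 (adjusted p = 0.00126, 0.0196 and 0.00953 with the date term). Without date 1 Zcwpw1 and Stag3 no longer passed, and without date 2 Stag3 did not. The median log2 fold change of the 14 genes was -0.34, with 12 below 0, as were 7354 of all 14276 tested genes. Dazl and Hormad1 were the 2 above 0.

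**Figure D5:**
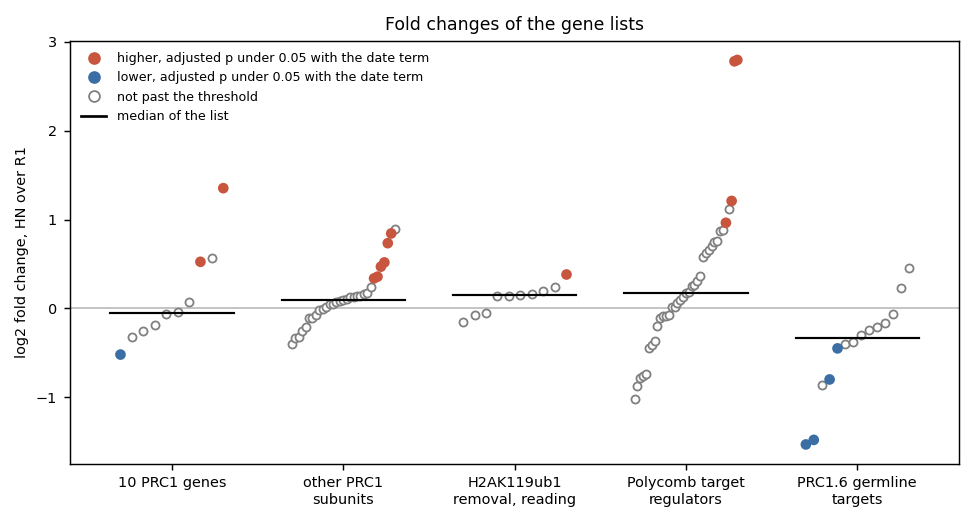
Log2 fold change of HN over R1 (vertical axis) for the 10 PRC1 genes and the 4 gene lists, each point a gene and each black bar the median of its list, with genes whose limma adjusted p was under 0.05 with the date term filled red (higher) or blue (lower). The filled points of the germline list all lie below 0, and those of the other 3 lists all lie above it.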

How the data were processed

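Total RNA (130 ng) of 3 collections of R1 and HN mESCs was made into libraries with the Illumina TruSeq RNA kit v2 and sequenced as paired-end reads. The authors aligned the reads with STAR to mm10/GRCm38, removed duplicates with Picard, counted reads on exons with HTSeq and normalized them with DESeq2. Versions and the gene annotation are not given in the sources used here. The deposited signal of each gene is a normalized count, that is reads divided by a size factor of the library. Of these values 100% were whole multiples of 1 read within a tolerance of 0.001, so reads were recovered for depth and for the count tests. Between 1640391 and 3866717 reads per library were counted. The intervals given are limma intervals. They rest on the spread between libraries, which limma draws toward a trend over all tested genes. For a single gene they can be narrower than its own spread would give, most of all with the date term.

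Values were compared on the scale log2(normalized count + 1), which understates the change of low genes, with limma 3.58.1 in R 4.3.3 (variance trend, 14276 genes with a mean of at least 5, Benjamini-Hochberg adjustment over all of them, adjusted p under 0.05, no fold limit, no date term). As an alternative on recovered reads, edgeR 4.0.16 passed 16 genes as higher and 18 as lower. DESeq2 1.42.0 passed 68 and 44. The labels give same-numbered libraries a shared collection date, which pairs them. Their deviations from the line means correlated at 0.25, 0.69 and 0.77 on dates 1, 2 and 3, and those of other pairs at -0.71 to 0.34. R1 of date 1 ran more like HN of date 2 (0.34) than like HN of date 1 (0.25). Deviations within a line cancel out when summed, so high same-date correlations push the others down. Because the labels pair the libraries, the fit with the replicate number as a block is given wherever it changes a call. Other alternatives were a pseudocount of 0.1 or 10, median centring, no filter on the mean or a minimum of 50, quantile normalization, no variance trend, a fold limit, and leaving out each library or date. Leaving out a date with the block kept was added after seeing the data. Such a fit keeps only the pairs of the other dates, so its p-values rest mostly on the spread pooled over genes. The scripts were tested on simulated data.

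The genes and lists were chosen with earlier results of these data known. Named were the 10 genes, Htt, the list genes that passed with or without the block (at most the 6 with the smallest p) and the 3 genes most like each of the 2 members with the smallest p. Exon lengths come from GENCODE M21 and promoter windows from RefSeq. Another 27 rows carry a date where a gene symbol should be, and none of these is named. The share of Cbx7 in its paralog family was computed but is not reported here.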

Additional observations from a re-analysis of the deposited data

How the results depend on the processing

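With the date as a replicate block, limma passed 780 genes as higher and 574 as lower in place of 17 and 18, edgeR 920 and 685, and DESeq2 334 and 178. DESeq2 without the block passed 68 and 44, median centring 30 as higher, quantile normalization 27 as higher, and limma without the variance trend 0 in either direction. Among the 10 PRC1 genes the replicate block gave 2 higher and 1 lower, edgeR with it 3 and 1 (adding Pcgf2) and DESeq2 with it 1 and 1 (Bcor and Cbx7). DESeq2, no filter, a mean of at least 50, median centring and quantile normalization each passed 1 as higher, Bcor. The other PRC1 subunits gave 6 higher with the block, 6 higher and 1 lower (Tfdp1) with edgeR, and 3 higher with DESeq2. The H2AK119ub1 list gave 1 higher with the block in limma and edgeR. Developmental regulators gave 4 higher with it in limma and edgeR, 2 in DESeq2 without it (Olig1 and Olig2) and 2 with it (Olig1 and Eomes), and 0 with a mean of at least 50, a limit under which Olig1 was not tested, or without the variance trend. Germline targets gave 4 lower with the block in limma and edgeR and 1 in DESeq2.

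Without the block, leaving out 1 library or date gave 0 to 30 higher and 0 to 26 lower genes in all, and 0 to 2 higher developmental regulators. With the replicate block and 1 date left out, 304 to 836 genes were higher and 190 to 847 lower. The lowest of both came without date 2. For the 10 PRC1 genes these were 1 to 3 higher and 0 to 1 lower, for the other subunits 1 to 5 and 0 to 1, for the H2AK119ub1 list 0 to 1 higher, for the developmental regulators 4 to 6 and 0 to 1, and for the germline targets 2 to 4 lower. The log2 fold change of Bcor stayed above 0 in all 21 alternatives (1.19 to 1.504), as did that of Pcgf3 (0.39 to 0.76), and that of Cbx7 stayed below 0 (-0.89 to -0.25). Bcor passed in 8 of 21. Ring1, Rnf2 and Bmi1, none of which passed anywhere, changed sign. The log2 fold change of Ring1 was -0.0299 with edgeR and the replicate block and -0.66 to 0.57 over the leave-outs with or without it. That of Rnf2 was -0.17 to 0.0420 (-0.0853 to 0.0245 with the block) and that of Bmi1 -0.20 to 0.18 (-0.16 to 0.11 with the block). With 1 library or date left out, the share of Rnf2 differed between HN and R1 by -0.924 to 1.05 percentage points and that of Bmi1 by -1.40 to 0.0670. The block also changed calls of mESC markers, and those of D730005E14Rik and Rpl3, the neighbours of Cbx7 named below. Depth limits Ring1 and Pcgf5 most, at 5 to 31 reads per library. The causes were not tested.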

Other observations

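The tested genes next to Bcor on chromosome X did not pass in limma with or without the date term. Atp6ap2, 427446 bp away, had a log2 fold change of 0.29 with every HN library above every R1 library, and Mid1ip1, 1317050 bp away on the other side, one of -0.52 with every HN library below. Next to Cbx7 on chromosome 15, D730005E14Rik at 22687 bp was higher with the date term (log2 fold change 1.03, limma adjusted p = 0.0196), as was Rpl3 at 106672 bp (0.39, adjusted p = 0.00287). Pdgfb at 24755 bp and Cbx6 at 81119 bp had log2 fold changes of -0.61 and -0.40 and did not pass. Next to Pcgf3 on chromosome 5, Atp5k, Pigg, Gak and Tmem175 had log2 fold changes from -0.29 to -0.10 and did not pass. These neighbours were chosen by position.

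Over the 6 libraries, the genes whose log2 values ran most like those of Bcor were Ube2v2, Gpa33 and Tmem40 (Pearson r = 0.986, 0.983 and 0.983), and 40 of the tested genes had an r above 0.95. For Pcgf3 they were Il23a, E2f1 and Cdx1 (0.995, 0.994 and 0.994), with 86 such genes. The 6 points share 2 lines, 3 dates and 1 library scaling, and no p is given.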
